A study of Homo sapiens with 6 samples.

Results

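Metalloproteinases, their inhibitors and the plasminogen activators were described in SUM159 cells in which spinophilin had been silenced. A list of 44 genes was taken, and every transcript cluster annotated with the symbol of a listed gene and no other symbol was read out. Clusters annotated with several symbols were left out, here and for the other genes below. A gene is said to have a transcript cluster only if such a single-symbol cluster was found. Of the 44 genes, 31 had at least 1 transcript cluster, 35 transcript clusters in all, out of 53617 on the array. These 31 were 16 matrix metalloproteinases, 5 inhibitors and 10 ADAM proteins. The other 13 genes (MMP2, MMP3, MMP7, MMP9, ADAMTS1, ADAMTS4, ADAMTS5, ADAMTS6, ADAMTS9, ADAMTS12, PLAU, PLAUR and PLAT) were not analysed here, so the values cover no ADAMTS proteinase and neither plasminogen activator nor the urokinase receptor.

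SUM159 is a human breast cancer cell line that the study used as a model of the basal-like subtype. Both groups had been stably transduced with lentiviral particles and selected with puromycin, the silenced cells with a short hairpin RNA (shRNA) against spinophilin and the control cells with a scrambled shRNA. Each group had 3 samples on 1 Affymetrix Human Gene 2.0 ST array each, numbered 1, 2 and 2d. The study calls its replicates biological, but no source used here says what the d stands for, and if arrays 2 and 2d share a culture the p-values measure partly technical spread. Spinophilin itself (PPP1R9B) was not analysed here, so the degree of silencing was not read from these arrays. All values are log2 expression values of a transcript cluster, and a difference of 1 on this scale is a 2-fold change. A cluster's brightness also depends on its probes, so clusters were set against the quartiles of their array and not against each other. In bulk RNA, fewer cells of a kind and less RNA per cell cannot be told apart.

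Matrix metalloproteinases (MMPs) are zinc-dependent enzymes that cut collagens, other matrix proteins and many secreted factors. Most are secreted as inactive precursors, and the membrane-type MMPs are held at the cell surface. The ADAM proteins are membrane proteinases that release the outer parts of growth factors, cytokines and adhesion molecules, and some of them lack a working active site and serve as receptors. Tissue inhibitors of metalloproteinases (TIMPs) block the active site of these enzymes, and RECK is an inhibitor anchored to the membrane. In carcinoma cells these systems are known for their part in matrix breakdown and cell invasion.

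The array medians lay between 5.19 and 5.23, the lower quartiles between 3.85 and 3.90 and the upper quartiles between 6.50 and 6.53. Differences between 2 arrays had an SD over all transcript clusters of 0.267 to 0.306 within a group and 0.290 to 0.328 between groups. Of 10 marker genes of basal and mesenchymal breast cancer lines 7 had a transcript cluster, and 5 of them (VIM, CD44, EGFR, FN1 and ZEB1) lay above the upper quartile on every array, while KRT5 and KRT14 did not. Of 11 luminal markers, all with a transcript cluster, 2 (KRT18 by its brighter cluster, not by its second, and XBP1) lay above the upper quartile on every array, and the means of ESR1 were 4.34 in the control and 4.23 in the silenced cells. Both fibroblast markers with a cluster (of 6 listed) lay below the lower quartile on every array, with a mean level of the list of 3.55 to 3.60 in the control and 3.25 to 3.59 in the silenced arrays. The 3 leukocyte markers (of 7) had a mean level of 5.02 to 5.14 in the control and 4.91 to 5.08 in the silenced arrays. Of these 3, CD68 lay above the upper quartile and LYZ below the lower quartile on every array. The 3 endothelial markers (of 5) had a mean level of 5.31 to 5.49 and 5.48 to 5.58, and none lay above the upper quartile on every array. In each of the fibroblast, leukocyte and endothelial lists 1 marker had an unadjusted p under 0.05 and the others did not. In the basal and luminal lists 0 markers had such a p. PECAM1 differed by 0.46 (unadjusted p = 0.0145, adjusted p = 0.509, limma), while the other endothelial markers VWF and KDR differed by -0.10 and -0.05. CD68 differed by -0.30 (unadjusted p = 0.0102, adjusted p = 0.456, limma), while CD14 and LYZ differed by -0.08 and 0.13. DCN differed by -0.26 (unadjusted p = 0.0266, adjusted p = 0.59, limma) and LUM by -0.02. The part of these markers in the results below was not tested.

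The promoters read of members on chromosome 11 differed in base composition from those of the other members, so examples of both are printed here. RefSeq promoters (GRCh38.p14) were read for 20 of the 31 genes, as the 250 bases before the start of transcription on the strand of the gene. Those of MMP1, MMP12, MMP13, MMP16, MMP17, MMP19, MMP25, MMP28, TIMP2, ADAM9 and ADAM28 were not read. Capitals mark GC boxes (GGGCGG on either strand) and TATA boxes (TATAAA on the strand of the gene). The TIMP3 promoter (chr22:32801455-32801704, plus strand) and the ADAM22 promoter (chr7:87934001-87934250, plus strand) belong to the members with the smallest p-values. For TIMP3 that p-value is of its brighter cluster, and whether this cluster reads a transcript of the promoter shown was not tested.
TIMP3: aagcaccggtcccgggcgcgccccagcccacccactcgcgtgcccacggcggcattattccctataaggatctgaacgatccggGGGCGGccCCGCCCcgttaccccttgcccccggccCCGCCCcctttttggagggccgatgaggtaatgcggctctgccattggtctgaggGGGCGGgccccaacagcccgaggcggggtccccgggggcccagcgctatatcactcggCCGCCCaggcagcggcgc
ADAM22: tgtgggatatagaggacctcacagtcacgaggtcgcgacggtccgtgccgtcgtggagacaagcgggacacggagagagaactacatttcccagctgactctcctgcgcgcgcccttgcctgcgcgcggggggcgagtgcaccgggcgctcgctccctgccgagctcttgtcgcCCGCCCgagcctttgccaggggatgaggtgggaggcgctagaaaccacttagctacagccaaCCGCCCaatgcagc
The MMP10 promoter (chr11:102780629-102780878, minus strand) and the MMP8 promoter (chr11:102724955-102725204, minus strand) belong to neighbours in the metalloproteinase cluster of chromosome 11.
MMP10: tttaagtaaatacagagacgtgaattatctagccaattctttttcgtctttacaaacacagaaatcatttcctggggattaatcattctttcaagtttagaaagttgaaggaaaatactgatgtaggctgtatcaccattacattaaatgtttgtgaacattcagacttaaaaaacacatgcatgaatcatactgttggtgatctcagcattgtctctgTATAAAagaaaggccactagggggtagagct
MMP8: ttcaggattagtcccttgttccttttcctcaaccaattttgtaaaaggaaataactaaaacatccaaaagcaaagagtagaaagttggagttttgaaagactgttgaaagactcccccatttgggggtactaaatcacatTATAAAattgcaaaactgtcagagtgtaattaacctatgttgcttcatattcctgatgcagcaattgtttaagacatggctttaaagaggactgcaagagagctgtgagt
The TIMP3 stretch has 72.4% G and C, 26 CpG dinucleotides and 5 GC boxes, and that of ADAM22 has 65.6%, 25 and 2. The MMP10 stretch has 34.4% G and C, 2 CpG dinucleotides and 1 TATA box that begins 31 bases before the start, while that of MMP8 has 36.4%, 0 CpG dinucleotides and 1 TATA box that begins 110 bases before the start. The 3 promoters read on chromosome 11 (MMP8, MMP10 and MMP27) held 32.8% to 36.4% G and C and none had a GC box. The 17 on other chromosomes held 56.8% to 79.6%, and 15 of them had a GC box. Over 35116 promoters of the same length the median was 58.0% G and C with 11 CpG dinucleotides, 42.6% had a GC box and 6.8% a TATA box, which 3 of the 20 had. An AP-1 motif (TGAGTCA, either strand), found in 4.2% of those 35116 promoters, was in 0 of the 20 stretches. The 20 do not include the collagenases MMP1 and MMP13, so the count says nothing of their promoters. These matches are a description of the sequence.

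The first comparison was of the inhibitors, the 4 TIMP genes and RECK. None of the 5 passed the test at an adjusted p under 0.05, and their differences, silenced minus control, ran from -0.09 to 0.98 with a median of 0.141.

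TIMP3, an inhibitor that binds to the matrix and also blocks ADAM17, had the largest difference of the 31 genes in either direction. Its brighter transcript cluster (16934302) read 6.17, 6.42 and 6.35 in control arrays 1, 2 and 2d and 7.10, 7.18 and 7.60 in silenced arrays 1, 2 and 2d. Every silenced array lay above every control array, and the lowest silenced value was above the highest control value by more than the spread of the control arrays. The means were 6.31 ± 0.130 and 7.29 ± 0.268 (SD, n = 3 arrays each), a difference of 0.98 (95% interval 0.63 to 1.33), or 1.97-fold. The unadjusted p was 0.000281 and the Benjamini-Hochberg adjusted p over all transcript clusters was 0.088 in limma, above the threshold. With only the transcript clusters brighter than the median of all cluster means the adjusted p was 0.0461, and over all alternatives run on this cluster the difference kept its sign.

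The second TIMP3 cluster (16929442) did not show a difference of this size. It read 6.12, 6.12 and 6.50 in the control arrays and 6.57, 6.56 and 6.24 in the silenced arrays, and the groups overlapped through the arrays labelled 2d. The difference was 0.21 (95% interval -0.13 to 0.54, unadjusted p = 0.188, adjusted p = 0.84, limma). The brighter cluster exceeded the dimmer one by 0.04, 0.29 and -0.14 in the control arrays and by 0.53, 0.62 and 1.35 in the silenced arrays, so the gap between the clusters also separated the groups. TIMP3 lies on the plus strand of chromosome 22, inside the gene of the synaptic vesicle protein SYN3. The brighter cluster stands, in the order of cluster numbers, among genes of which 6 of 6 lie on the minus strand, and the dimmer one among genes of which 6 of 6 lie on the plus strand. Clusters that are adjacent in this order shared their strand in 93.6% of 11548 pairs of named clusters. Of the 35 member clusters, 22 belonged to a gene whose strand was read here. Of these 22, 20 stood among genes of their own strand. The MMP25 clusters, not among the 22, are described below. Whether the brighter cluster reads TIMP3 or a transcript of the other strand was not tested. With the dimmer cluster for TIMP3, a choice made after seeing the data, 0 of the 31 genes passed the unadjusted p and the 1.5-fold criterion. SYN3 read 4.62, 4.56 and 4.58 in the control and 4.75, 4.69 and 4.82 in the silenced arrays, a difference of 0.17 (unadjusted p = 0.0669, adjusted p = 0.718, limma) with groups that did not overlap.

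**Figure D1:**
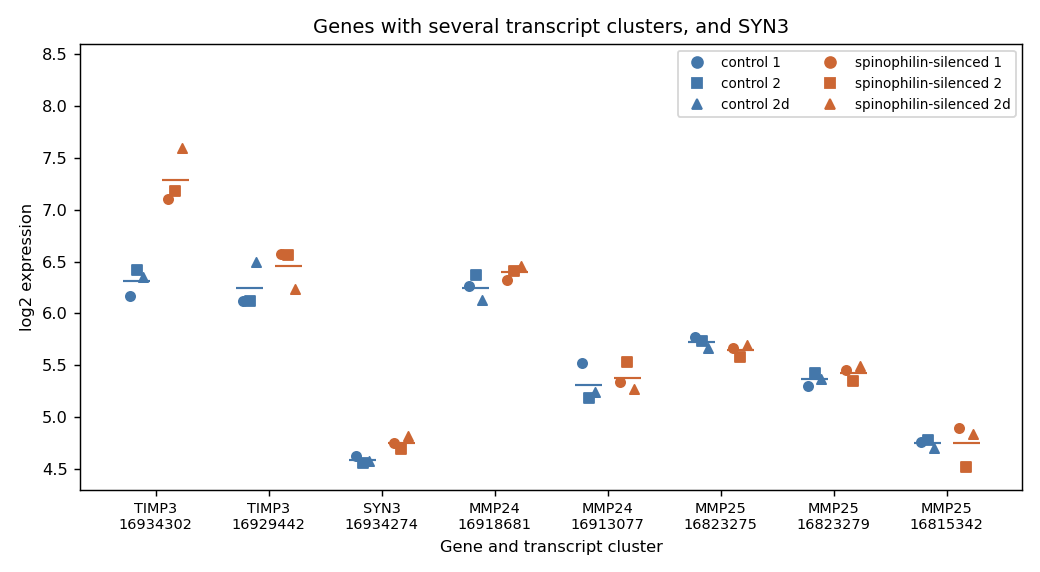
Log2 expression on each of the 6 arrays for every transcript cluster of TIMP3, MMP24 and MMP25 and for SYN3, with the control arrays in blue, the spinophilin-silenced arrays in orange and horizontal lines at the group means. The silenced arrays of TIMP3 cluster 16934302 lie between 7.10 and 7.60, above its control arrays at 6.17 to 6.42, while the groups overlap in TIMP3 cluster 16929442.

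TIMP1, a secreted inhibitor of most MMPs, lay above the upper quartile on every array. It read 8.37, 8.56 and 8.62 in the control and 8.78, 8.39 and 8.82 in the silenced arrays. Silenced array 2 lay among the control arrays, and the difference of 0.15 (95% interval -0.18 to 0.47) had an adjusted p of 0.888 in limma. TIMP2, which inhibits MMPs and also helps MMP14 to activate the precursor of MMP2, read 6.06, 6.23 and 6.18 in the control and 6.38, 6.21 and 6.30 in the silenced arrays. Its difference of 0.14 (95% interval -0.07 to 0.35) had an adjusted p of 0.822 in limma. TIMP4 had group means of 4.83 and 4.81. RECK read 6.69, 6.56 and 6.54 in the control and 6.54, 6.43 and 6.54 in the silenced arrays. No silenced array reached the lowest control array of RECK, though the nearest of them were equal at 2 decimals, and the difference was -0.09 (adjusted p = 0.886, limma).

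Among the 16 MMPs, 5 differences lay above 0 and 11 below, from -0.46 to 0.18 with a median of -0.064, and 0 passed the adjusted threshold. The collagenases MMP1, MMP8 and MMP13, which cut fibrillar collagen, differed by -0.25, 0.17 and -0.46. MMP13 read 4.20, 3.61 and 4.20 in the control and 3.69, 3.62 and 3.32 in the silenced arrays. Control arrays 1 and 2d were higher than the rest and control array 2 lay among the silenced arrays, so the groups overlapped. The SD was 0.342 in the control and 0.198 in the silenced arrays (n = 3 each), the values lay near the lower quartile of the arrays, and the difference had a 95% interval of -0.90 to -0.02 (unadjusted p = 0.0422, adjusted p = 0.651, limma). Without control array 2 the difference was -0.66, and MMP13 then passed the unadjusted p and the 1.5-fold criterion as well. Its unadjusted limma p rose above the threshold on leaving out other arrays. It was 0.128 without the first control array (difference -0.36) and 0.131 without control array 2d (difference -0.36). It was 0.0646 without silenced array 2 (difference -0.50) and 0.132 without silenced array 2d (difference -0.35).

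MMP1, the interstitial collagenase, read 3.89, 3.92 and 4.10 in the control and 3.72, 3.54 and 3.89 in the silenced arrays. Silenced array 2d equalled control array 1 at 2 decimals, and the difference of -0.25 (95% interval -0.52 to 0.02) had an adjusted p of 0.709 in limma. On chromosome 11 these collagenases stand in a run of neighbouring metalloproteinase genes, in the order MMP7, MMP20, MMP27, MMP8, MMP10, MMP1, MMP3, MMP12 and MMP13, with MMP7 and MMP3 not analysed here. The members of this run were dim. MMP27, MMP10 and MMP12 (macrophage elastase) lay below the lower quartile on all 6 arrays and were the only 3 of the 31 genes to do so.

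Neighbours in this run differed in both directions. MMP27 read 3.31, 3.49 and 3.49 in the control and 3.43, 3.75 and 3.67 in the silenced arrays, a difference of 0.18 with overlapping groups. MMP8, the collagenase of neutrophils, read 4.13, 3.90 and 3.95 in the control and 4.34, 4.19 and 3.96 in the silenced arrays. MMP10, a stromelysin that cuts many matrix proteins, read 3.35, 3.27 and 3.50 and then 3.42, 3.45 and 3.42, and its groups overlapped. MMP12 read 3.47, 3.38 and 3.49 in the control and 3.47, 3.28 and 3.53 in the silenced arrays. MMP20, an enzyme of tooth enamel that is not among the 44 genes, read 4.71, 4.70 and 4.44 in the control and 4.98, 5.12 and 4.79 in the silenced arrays. Its groups did not overlap, and its difference of 0.35 (95% interval 0.07 to 0.63) had an unadjusted p of 0.0221 and an adjusted p of 0.567 in limma.

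**Figure D2:**
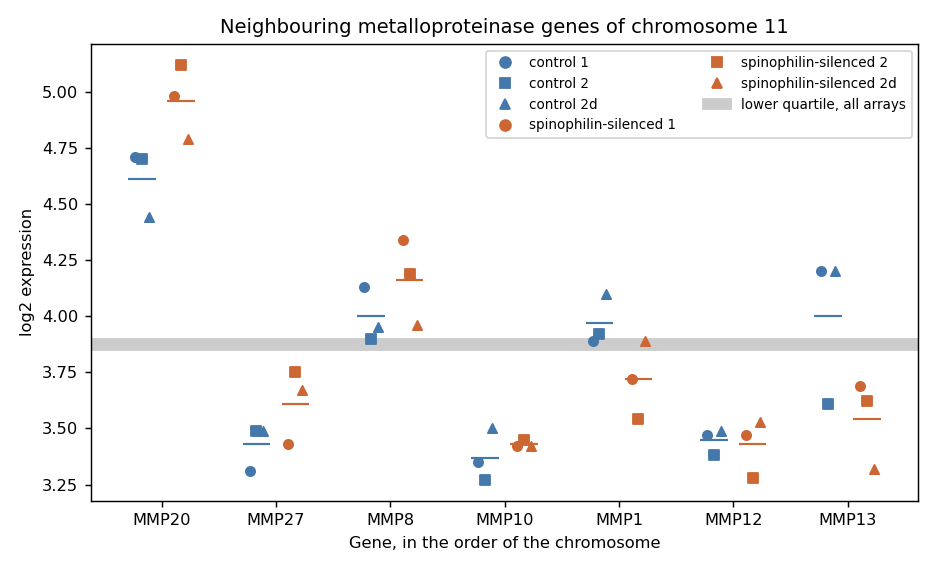
Log2 expression on each array for the neighbouring metalloproteinase genes of chromosome 11 in their order along the chromosome, with control arrays in blue, spinophilin-silenced arrays in orange, lines at the group means and a grey band for the lower quartile of the arrays (3.85 to 3.90). MMP27, MMP10 and MMP12 lie below the band on all arrays, and MMP13 shows 2 control arrays at 4.20 and the other at 3.61.

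The 6 membrane-type MMPs differed by -0.22 to 0.14. MMP14, which cuts collagen at the cell surface and activates the precursor of MMP2, read 5.56, 5.47 and 5.66 in the control and 5.45, 5.42 and 5.67 in the silenced arrays. The groups overlapped, and the 95% interval of its difference of -0.05 ran from -0.29 to 0.18, within 1.5-fold in either direction. MMP16, another transmembrane type, was the only MMP above the upper quartile on every array, with means of 7.55 and 7.65. MMP15 differed by -0.06 and the lipid-anchored MMP17 by -0.22.

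MMP24 and MMP25 had several transcript clusters. For MMP24 the brighter cluster (16918681) read 6.26, 6.37 and 6.13 in the control and 6.32, 6.41 and 6.46 in the silenced arrays, a difference of 0.14, and it stands among minus-strand genes although MMP24 lies on the plus strand. The other cluster of MMP24 (16913077) read 5.52, 5.18 and 5.24 in the control and 5.34, 5.53 and 5.27 in the silenced arrays, a difference of 0.07. Both clusters had overlapping groups. The brightest MMP25 cluster (16823275) read 5.77, 5.73 and 5.67 in the control and 5.67, 5.58 and 5.70 in the silenced arrays. Its second cluster (16823279) read 5.30, 5.43 and 5.37 and then 5.45, 5.35 and 5.49, and the third (16815342) 4.76, 4.78 and 4.70 and then 4.89, 4.52 and 4.84. The differences were -0.07, 0.06 and 0.00, all with overlapping groups. Clusters 16823275 and 16823279 stand among genes of which 6 of 6 lie on the minus strand. Cluster 16815342 stands among genes of which 6 of 6 lie on the plus strand. The strand of MMP25 was not read here, and which of its clusters read MMP25 was not tested. The remaining MMPs (MMP11, MMP19, MMP21 and MMP28) differed by -0.15 to -0.07.

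The 10 ADAM genes differed by -0.40 to 0.25 with a median of 0.027, and 0 passed the adjusted threshold. ADAM22, a receptor without proteinase activity that binds LGI proteins at synapses, read 5.35, 5.32 and 5.30 in the control and 4.87, 4.93 and 4.99 in the silenced arrays. All silenced arrays lay below all control arrays, and the arrays of each group lay close together. The means were 5.32 ± 0.0263 and 4.93 ± 0.0629 (SD, n = 3), a difference of -0.40 (95% interval -0.58 to -0.21). The unadjusted p was 0.00132 and the adjusted p 0.193 in limma, and the interval lay within 1.5-fold. Leaving out any 1 array gave differences of -0.43 to -0.36. ADAM23, the other non-catalytic member, differed by 0.25 (95% interval -0.04 to 0.54, adjusted p = 0.743, limma).

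The catalytic ADAM proteins held 4 of the 6 genes above the upper quartile on every array: ADAM9, ADAM10, ADAM12 and ADAM17, the other 2 being MMP16 and TIMP1. ADAM9, a sheddase, read 10.33, 10.30 and 10.36 in the control and 10.44, 10.44 and 10.39 in the silenced arrays. Its groups did not overlap, with a difference of 0.10 (95% interval -0.08 to 0.27, adjusted p = 0.862, limma). ADAM10, which cuts Notch receptors, had means of 10.17 ± 0.0281 and 10.24 ± 0.0601 (SD, n = 3) and a difference of 0.07 (95% interval -0.11 to 0.25). ADAM17, the sheddase of tumour necrosis factor and of several EGF receptor ligands, had means of 8.91 ± 0.0596 and 8.92 ± 0.138 (SD, n = 3) and a difference of 0.01 (95% interval -0.21 to 0.24). ADAM12, a proteinase made in placenta and in forming muscle, differed by 0.05. ADAM8, ADAM15, ADAM19 and ADAM28 differed by -0.13 to 0.04.

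**Figure D3:**
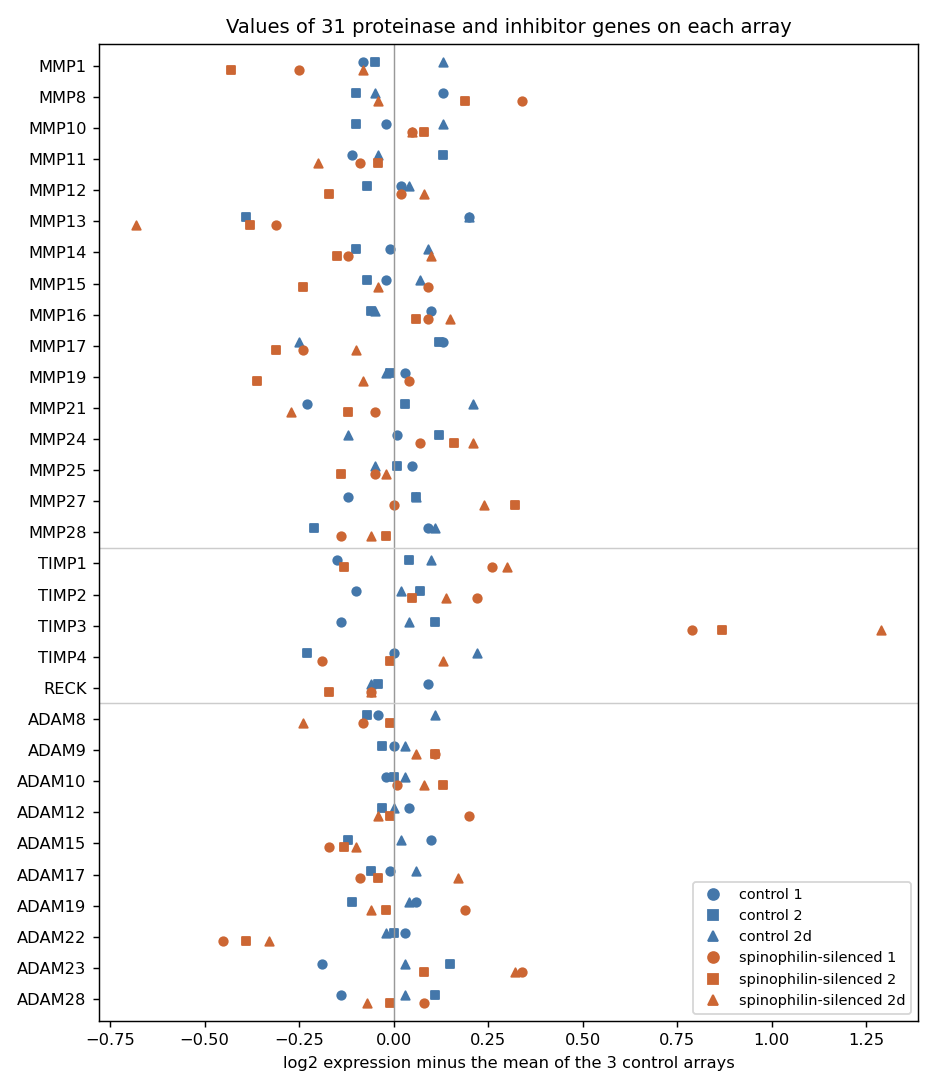
Value of each of the 31 genes on each array, as log2 expression minus the mean of the 3 control arrays, with MMPs, inhibitors and ADAM genes separated by lines, control arrays in blue and spinophilin-silenced arrays in orange. The silenced arrays of TIMP3 stand to the right of all other points and those of ADAM22 to the left of their control arrays.

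Counted over all 31 genes, each by its brightest cluster, 0 passed an adjusted p under 0.05 in limma and 3 had an unadjusted p under 0.05. The adjusted threshold was passed by 0.205% of all transcript clusters and by 0.222% of named genes. Unadjusted p-values under 0.05 were found for 9.68% of the members, TIMP3 higher and MMP13 and ADAM22 lower, against 7.39% of all clusters and 6.72% of named genes. An unadjusted p under 0.05 together with at least 1.5-fold, the criteria of the study's methods, was met by TIMP3 alone, 3.23% of the members, against 1.33% of all clusters and 0.873% of named genes. Groups did not overlap for 4 genes or 12.9% (TIMP3 and ADAM9 higher, ADAM22 and RECK lower), against 12.7% of all clusters and 14.2% of named genes. Each of these counts among the members rests on 4 genes or fewer.

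The median difference over the 31 genes was -0.018, with 14 above and 17 below 0. Over all transcript clusters the median was -0.003 with 49.0% above 0, and over named genes it was -0.010 with 46.3% above 0. For 29 of the 31 genes the 95% interval of the difference lay within 1.5-fold in either direction, the exceptions being TIMP3 and MMP13. For 30 it lay within 2-fold. The 29 include MMP27, MMP10 and MMP12, which lay below the lower quartile on every array, where background limits the differences that can be seen. An exact permutation test of 1 gene with 3 arrays against 3 cannot give a p below 0.1, so the p-values given are those of limma.

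**Figure D4:**
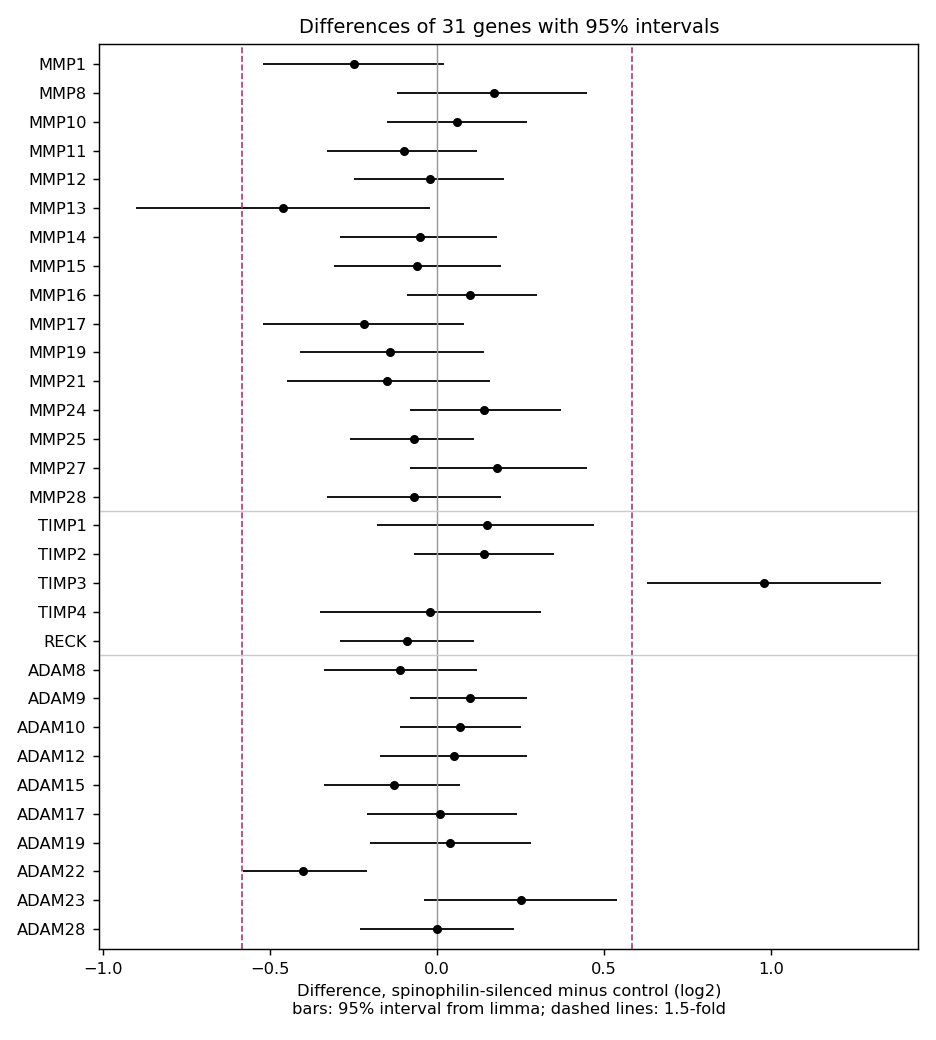
Difference of each of the 31 genes, spinophilin-silenced minus control on the log2 scale, with its 95% interval from limma and dashed lines at 1.5-fold. Only the interval of TIMP3 (0.63 to 1.33) lies wholly beyond a dashed line, and that of MMP13 (-0.90 to -0.02) crosses one.

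The genes around these systems were read from 12 lists of 159 genes, of which 93 had a transcript cluster. Of the 93, 0 passed the adjusted threshold, and 12 (12.9%) had an unadjusted p under 0.05, 5 higher and 7 lower, against 7.39% of all clusters and 6.72% of named genes, with a median difference of -0.006. The plasminogen system, in which urokinase and tissue activators turn plasminogen into plasmin, was represented by 9 of 19 listed partners and inhibitors. None of the 9 had an unadjusted p under 0.05, and their median difference was 0.061. THBD, thrombomodulin, differed by -0.25 (unadjusted p = 0.0646) and PLG, plasminogen itself, by 0.13 (unadjusted p = 0.158).

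Among 5 of 12 other inhibitors of matrix proteinases, THBS1 had the smallest p. THBS1, thrombospondin 1, a matrix protein that binds MMP2 and MMP9, read 10.80, 10.64 and 10.76 in the control and 11.43, 11.21 and 11.14 in the silenced arrays. Its groups did not overlap, and its difference of 0.53 (95% interval 0.28 to 0.77) had an unadjusted p of 0.00141 and an adjusted p of 0.197 in limma. The other 4 had unadjusted p-values above the threshold, with TFPI2, a serine proteinase inhibitor of the matrix, at -0.17 (unadjusted p = 0.12). Partners of ADAM10 and ADAM17, all 9 with a cluster, included FRMD8, which keeps ADAM17 and its iRhom partners at the cell surface, at 0.27 (unadjusted p = 0.0267, adjusted p = 0.59, limma), and TSPAN17, a tetraspanin that escorts ADAM10, at 0.23 (unadjusted p = 0.0504).

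Further lists held 9 ADAM genes (of 11 listed), 5 ADAMTS-like genes (of 19) and 6 genes listed with astacins and pappalysins (of 9). In each, 0 had an unadjusted p under 0.05, and the median differences were 0.032, 0.001 and -0.022. The ADAMTS-like genes were ADAMTSL1 to ADAMTSL5, so no ADAMTS proteinase was read here either. The last list was read from BMP1, TLL1, TLL2, PCOLCE, PCOLCE2 and PAPPA2, which are not all proteinases. The 5 proprotein convertases (of 7 listed), which activate many MMP and ADAM precursors, had a median of -0.024. None had an unadjusted p under 0.05. The smallest p-values were those of PCSK6 at -0.14 (unadjusted p = 0.167) and PCSK7 at -0.07 (unadjusted p = 0.458), and FURIN differed by -0.02. Of 3 further MMPs, MMP20 had the unadjusted p given above, MMP23B differed by 0.17 and MMP26 by -0.03.

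**Figure D5:**
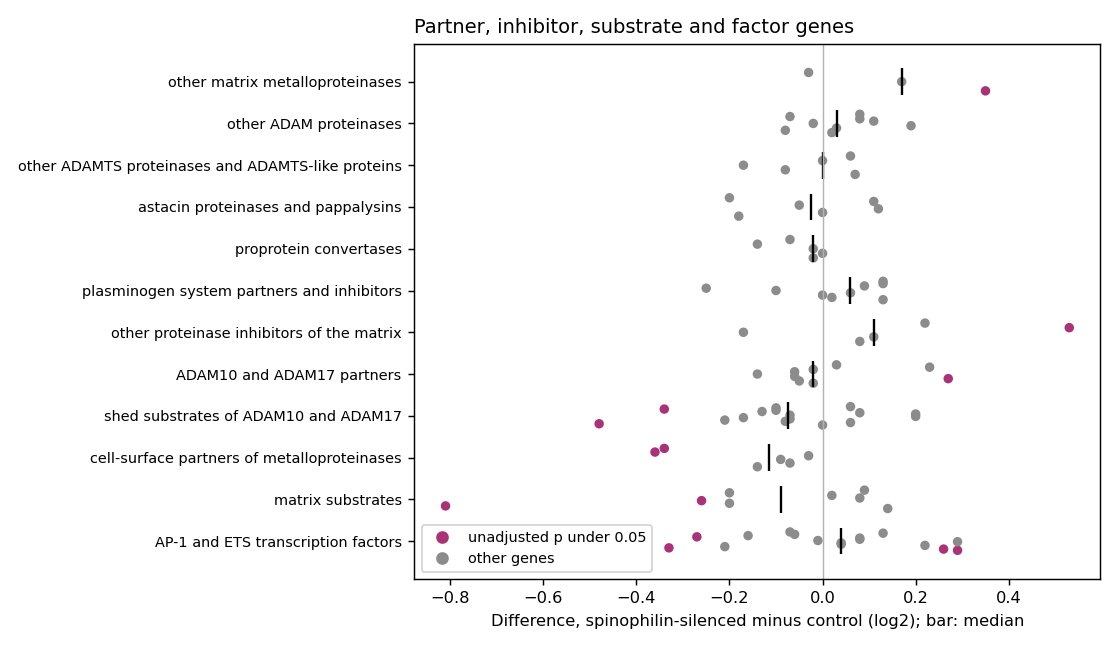
Difference, spinophilin-silenced minus control on the log2 scale, of each gene with a transcript cluster in 12 lists of partners, inhibitors, substrates and transcription factors, with black bars at the list medians and purple points for an unadjusted p under 0.05. Among the 93 genes THBS1 stands at 0.53 and VCAN at -0.81, and 0 genes passed the adjusted threshold.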

How the data were processed

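Total RNA of 3 spinophilin-silenced and 3 control samples was hybridized to Affymetrix Human Gene 2.0 ST arrays after NuGEN Applause WT-Amp Plus ST amplification. The authors used Partek 6.6 and RMA, as their methods and the submitters' processing notes say, which took off background, quantile-normalized the arrays, combined probes by median polish and log-transformed the result. The values deposited by the authors were used as log2 expression values, since the base is not named and the highest value of 13.70 is too high for other bases. These steps shrink differences of dim transcripts and make every difference relative to the rest of the array.

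All 53617 transcript clusters were fitted without covariates in limma 3.58.1 (lmFit, eBayes; R 4.3.3), with Benjamini-Hochberg adjustment across the whole table and a threshold of 0.05. The fit was tested on simulated data. Names came from the platform annotation, which gave 16098 clusters a symbol. The brightest cluster by the mean of the 6 arrays stood for a gene. RefSeq (GRCh38.p14) gave promoters, strands and gene order only, since no source used here names the build of the array annotation. Precision is limited by the number of arrays. The members and lists were chosen with earlier results of these data known. Per-array values were given for members past an unadjusted p of 0.05 or with groups that did not overlap, for named proteinases and inhibitors, for members with several clusters and for the chromosome 11 run, and lists were described by up to 4 genes of smallest p. The study's methods name an analysis of variance whose second factor is not stated. Alternatives are given in the closing section.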

Additional observations from a re-analysis of the deposited data

How the results depend on the processing

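With each array left out in turn, 15 to 48 transcript clusters of the array passed the adjusted threshold, against 110 with all 6. With the replicate label as a block 40 passed, with arrays 2 and 2d averaged 12, and with the unmoderated test 0, alone or with the replicate block. With brightness filters, centring, cyclic loess or trend and robust variances 106 to 161 passed. The causes were not tested. Same-numbered arrays of the 2 groups had correlations of deviations of 0.012, 0.000 and 0.093 for labels 1, 2 and 2d. The highest with an array of another label were 0.062, 0.062 and -0.024. From 3 arrays a group these values cannot show whether same-numbered arrays were handled together. The block brought no member past the adjusted threshold. The count of members past the adjusted threshold stayed at 0 in all alternatives but 1, where only clusters above the median brightness were tested and TIMP3 passed (1 member, adjusted p = 0.0461, with fewer clusters tested). The adjusted p of that TIMP3 cluster ran from 0.0461 to 0.687 (unmoderated test with the replicate block), and the other cluster had 0.84. MMP13 had an unadjusted p of 0.0535 with the replicate block and 0.114 with the unmoderated test. MMP1 came under 0.05 with the block (0.0396), ADAM9 with the unmoderated test (0.0171) and MMP27 with that test and the block (0.0469). Other unadjusted limma p-values fell under 0.05 with an array left out. MMP1 had 0.0243 without silenced array 2d, and MMP27 had 0.0354 without silenced array 1. Without control array 2d, MMP17 had 0.0147 and the dimmer TIMP3 cluster 0.0408. Without silenced array 2, TIMP1 had 0.0416 and ADAM23 0.0385. ADAM23 had 0.0442 without control array 2. The count with an unadjusted p under 0.05 and 1.5-fold was 1 to 2 with an array left out, MMP13 joining without control array 2. It was 0 when TIMP3 and MMP24 were each read by the cluster among genes of their own strand. That choice was made after seeing the data, and the other members kept their brightest cluster. The member median ran from -0.057 to 0.030 with an array left out. Differences near 0 turned their sign: ADAM17 was -0.01 with arrays 2 and 2d averaged. With an array left out, ADAM17 ran from -0.06 to 0.06, ADAM19 from -0.04 to 0.09, ADAM12 from -0.02 to 0.09 and ADAM28 from -0.07 to 0.05. TIMP4 ran from -0.13 to 0.09, MMP12 from -0.08 to 0.05 and MMP15 from -0.13 to 0.03. MMP24 cluster 16913077 ran from -0.01 to 0.17 and MMP25 cluster 16815342 from -0.07 to 0.12. MMP10, MMP12 and MMP27 lay below the lower quartile, where background limits the differences that can be seen.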

Other observations

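Genes that the proteinases act on, or that are known to regulate their transcription, were read from the same fit, and none passed the adjusted threshold. The counts below are of unadjusted p-values under 0.05, which 7.39% of all clusters and 6.72% of named genes had. Of 18 listed shed substrates of ADAM10 and ADAM17, 16 had a cluster. Of these 16, 2 had an unadjusted p under 0.05 and both were lower. EREG, the EGF receptor ligand epiregulin, read 10.77, 10.79 and 10.72 in the control and 10.35, 10.37 and 10.11 in the silenced arrays, a difference of -0.48 (unadjusted p = 0.0015, adjusted p = 0.206, limma). SDC1, the heparan sulfate proteoglycan syndecan 1, differed by -0.34 (adjusted p = 0.352, limma). Of 11 listed cell-surface partners 6 had a cluster, and 2 of these had such a p. They were SDC1 again and CLDN1, a tight junction protein, at -0.36 (unadjusted p = 0.0169, adjusted p = 0.528, limma).

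Of 27 listed matrix substrates 8 had a cluster, and of these VCAN and DCN had an unadjusted p under 0.05. DCN lay below the lower quartile on every array. VCAN, the proteoglycan versican, which ADAMTS proteinases cut, read 7.98, 7.77 and 8.29 in the control and 7.07, 7.00 and 7.57 in the silenced arrays. Its difference was -0.81 (95% interval -1.26 to -0.35, adjusted p = 0.32, limma), and its second cluster, which stands among genes of the other strand, differed by -1.12 (adjusted p = 0.264, limma). Of 18 listed AP-1 and ETS transcription factors, which are known regulators of MMP genes, 16 had a cluster and 4 an unadjusted p under 0.05. FOS at 0.29 and FOSB at 0.26 were higher, and FOSL1 at -0.33 and ETV1 at -0.27 were lower. Their adjusted p-values were 0.61, 0.62, 0.59 and 0.46 in limma. The second clusters of FOS and FOSB differed by 0.20 (unadjusted p = 0.121) and 0.02 (unadjusted p = 0.775), both with overlapping groups.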
